A study of Mus musculus with 8 samples.

Results

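The VAMP family comprises the small membrane proteins of transport vesicles that take part in membrane fusion. The 7 mouse genes *Vamp1*, *Vamp2*, *Vamp3*, *Vamp4*, *Vamp5*, *Vamp7* and *Vamp8* were read from the arrays through every non-control probe whose accession belonged to one of them, which gave 8 probes, out of 21368 genes named on the array. In 6 of the 7 genes a probe passed the filter on dim spots (signal well above background, the scanner software's flag, on 4 or more arrays), and these were among the 11072 genes tested; *Vamp1* did not pass. The family was chosen by the fall of the *Vamp5* signal in the knockout, which was among the largest measured, so the genotype difference of *Vamp5* is given as a description with no test. RNA came from hepatocytes isolated from 4 control mice (hCNR1+/+, labelled hCNR1_WT, strain label CNRO) and 4 mice lacking the cannabinoid 1 receptor gene *Cnr1* in hepatocytes (hCNR1-/-, labelled hCNR1_cKO, strain label CNRO Alb-Cre). In the knockout, Cre recombinase under the albumin promoter, which is active in hepatocytes, deletes a floxed *Cnr1*, and the controls were littermates. All mice were males of 12-14 weeks on a standard diet, and neither group received a toxin.

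A SNARE complex forms when a SNARE on a vesicle winds together with SNAREs on the target membrane, and the zippering of the helices drives fusion. Most VAMP proteins contribute an arginine to the centre of this bundle and are called R-SNAREs, while syntaxins and SNAP proteins contribute glutamines and are called Q-SNAREs. Hepatocytes use these proteins to secrete plasma proteins, to recycle receptors and transporters at the sinusoidal and canalicular surfaces, and to fuse endosomes and autophagosomes with lysosomes.

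Each mouse had 1 array on a shared slide, with the hCNR1+/+ arrays in one row and the hCNR1-/- arrays in the other, so that the effect of genotype cannot be told apart from that of the row. The 75th percentile of intensity ran from 62.0 to 139 on the hCNR1+/+ arrays and from 29.3 to 124 on the hCNR1-/- arrays, where hCNR1-/- replicate 4 was the dimmest. This array also had the lowest mean correlation with its own group (0.942, against 0.964 to 0.980 for the other 7 arrays). The *Cnr1* probe did not rise well above background on any array, so the labels could not be checked with it. The 12 hepatocyte markers examined were all tested. Of these 8 had log2 fold changes below 0 (43.4% of all tested genes). In limma 1 was called higher, *Apob* (1.63, adjusted p = 0.0477), and 0 were called lower, against 2.94% and 1.30% of all genes. *Pck1* (-1.81, adjusted p = 0.0515) and *Ass1* (-1.14, adjusted p = 0.0800) were lower at an unadjusted p below 0.05, as were 6.92% of all genes. Signals below are log2 intensities minus the 75th percentile of the array, and fold changes are hCNR1-/- over hCNR1+/+. Signals of different probes are not comparable with each other, so no order of abundance among the VAMP genes is given.

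*Vamp5* encodes myobrevin, a VAMP protein first described in muscle, where its amount rises as myotubes form. Its 1 probe was well above background on all 8 arrays. In hCNR1+/+ hepatocytes the log2 signal was 2.83, 2.90, 2.31 and 2.49 in replicates 1 to 4. In hCNR1-/- hepatocytes it was -1.30, -0.49, -0.64 and 0.87. All 4 knockout values lay below all 4 control values, and hCNR1-/- replicate 4 was the highest of its group. Groups free of overlap with the knockout lower made up 5.04% of all tested genes. The means were 2.63 ± 0.28 (SD, n = 4) and -0.39 ± 0.91 (SD, n = 4), a log2 difference of -3.02 or 8.11-fold less signal, which placed *Vamp5* at rank 16 of the falls among the 11072 tested genes. Before any scaling between arrays, the intensities were 348 to 1037 in hCNR1+/+ and 50.4 to 60.6 in hCNR1-/- hepatocytes, so the probe read nearly the same on the 4 knockout arrays although their overall brightness differed. Leaving out single arrays gave log2 differences from -3.44 to -2.72, and normexp background correction gave -2.22.

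**Figure D1:**
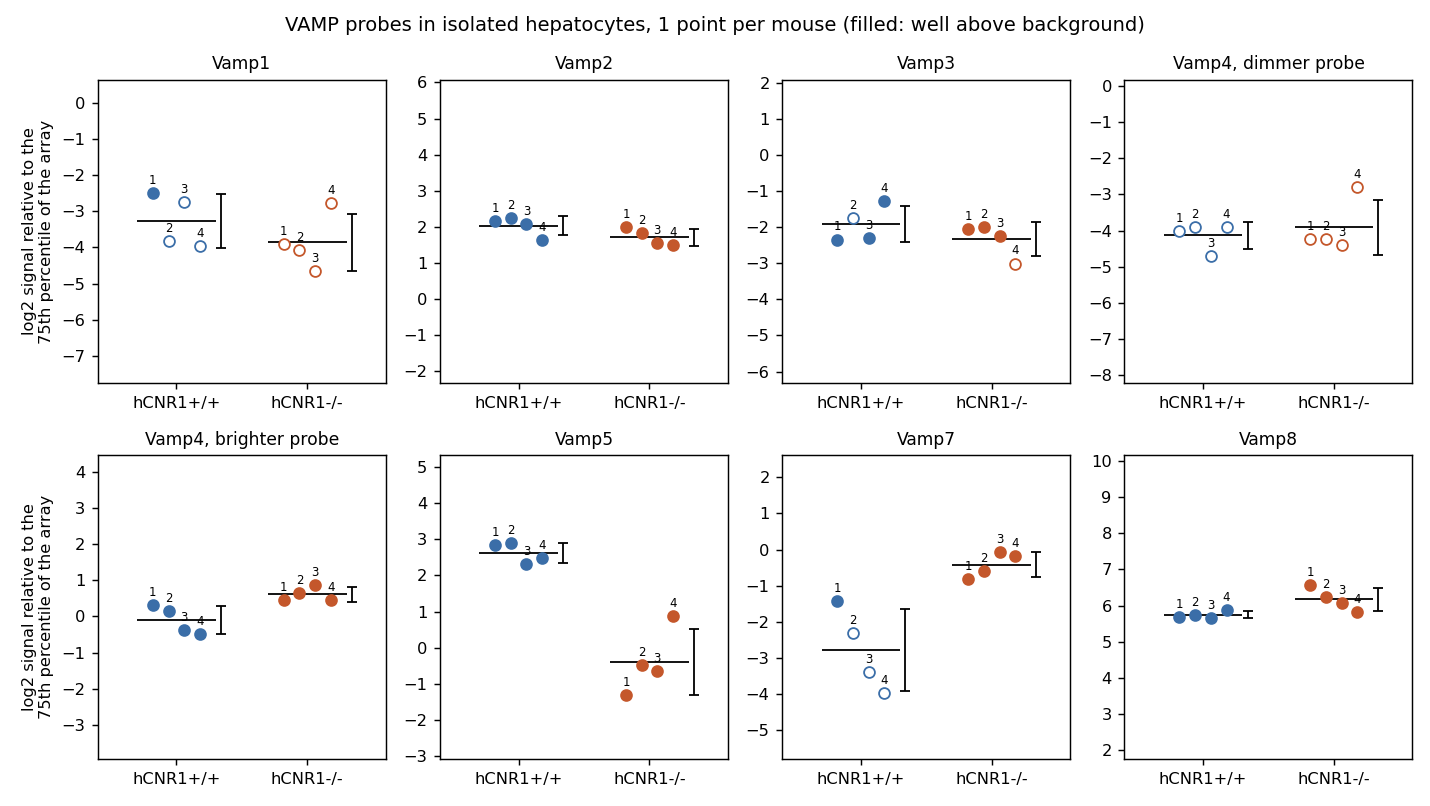
Log2 signal of each VAMP probe relative to the 75th percentile of its array (vertical axis, the same span in every panel) in the 4 hCNR1+/+ and 4 hCNR1-/- mice (horizontal axis). Points are mice numbered by replicate, filled where the spot was well above background, lines are means and bars are SDs; *Vamp5* was lower in all 4 knockout mice, and *Vamp7* was well above background in 4 of 4 knockout but 1 of 4 control mice.

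Other cell types in the preparations were followed through marker genes. Of 12 Kupffer cell markers 10 were tested, all 10 had log2 fold changes below 0 (43.4% of all tested genes), 6 were lower and 0 higher at an unadjusted p below 0.05 (6.92% and 14.7% of all genes), and 2 were called lower (1.30% of all genes), *Marco* (-2.41, adjusted p = 0.0336 in limma) and *Ctss* (-1.89, adjusted p = 0.0124), with *Timd4* not above background on any array. The summed level of the 10, as intensity over the 75th percentile, was 85.6 to 169 in hCNR1+/+ and 51.5 to 70.6 in hCNR1-/- mice. *Cd68* had the largest values in this sum, with log2 signals of 5.72 to 6.56 and 5.15 to 5.34. The mean log2 signal of the 10 was 1.39 to 2.59 and 0.23 to 1.12. *Csf1r* had the smallest difference (-0.21, adjusted p = 0.776 in limma). The part of the Kupffer cell markers in the lower *Vamp5* signal was not tested, and fewer cells of a type cannot be told apart from less RNA per cell. Of 13 sinusoidal endothelial markers 10 were tested and none was called by limma (1 lower and 0 higher at an unadjusted p below 0.05). Their summed level was 54.6 to 110 in hCNR1+/+ and 65.1 to 330 in hCNR1-/- mice, the last in replicate 4, where *Kdr* alone had a log2 signal of 8.18. The mean log2 signal of these 10 in that array (1.21) lay within the range of the controls (0.65 to 1.58). Of 8 skeletal muscle markers only *Acta1* was tested, and 6, among them *Ckm* and *Myh4*, were not above background on any array. The log2 signal of *Acta1* was -1.73 to -0.21 in hCNR1+/+ and -2.95 to -0.07 in hCNR1-/- mice. Its probe was well above background on 4 of 4 control and 2 of 4 knockout arrays. Of the stellate cell, cholangiocyte, lymphocyte and neutrophil lists, 1 of 9, 3 of 6, 2 of 8 and 1 of 7 genes were tested and none was called by limma (0, 0, 0 and 1 lower and 0, 0, 1 and 0 higher at an unadjusted p below 0.05).

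*Vamp5* and *Vamp8* are close neighbours on chromosome 6, with 4752 bases between them in the assembly GRCm38.p6. Their promoter sequences are printed here because the pair shows how unlike the starts of these nearby genes are. Each runs from 250 bases before to 50 bases after the RefSeq gene start, written 5′ to 3′ on the minus strand, from chr6:72380419-72380718 for *Vamp5* and chr6:72390618-72390917 for *Vamp8*. Capitals mark matches, on either strand, to the TATA box TATAAA, to the CCAAT box, to the GC box written as GGGCGG, and to the core of the interferon-stimulated response element.
Vamp5: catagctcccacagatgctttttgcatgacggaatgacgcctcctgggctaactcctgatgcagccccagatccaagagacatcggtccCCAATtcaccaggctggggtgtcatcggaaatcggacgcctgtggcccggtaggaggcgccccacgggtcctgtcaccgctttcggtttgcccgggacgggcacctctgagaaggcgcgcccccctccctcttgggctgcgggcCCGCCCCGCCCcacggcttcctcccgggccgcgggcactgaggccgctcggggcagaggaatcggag
Vamp8: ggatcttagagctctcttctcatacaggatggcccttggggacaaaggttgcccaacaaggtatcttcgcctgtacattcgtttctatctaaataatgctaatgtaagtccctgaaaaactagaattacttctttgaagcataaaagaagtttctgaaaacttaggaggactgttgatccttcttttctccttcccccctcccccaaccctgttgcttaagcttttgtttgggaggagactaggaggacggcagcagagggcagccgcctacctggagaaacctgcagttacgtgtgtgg

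The *Vamp5* promoter had a GC content of 67.3% and 25 CpG pairs, and the *Vamp8* promoter 46.7% and 5, against medians of 52.7% and 7 over 32851 promoters of the same length. The *Vamp5* window held 1 CCAAT and 2 overlapping GGGCGG matches, which 37.4% and 35.7% of all promoters also hold. Neither window held a TATA box (13.6% of promoters) or the interferon response core (3.44%), and the *Vamp8* window held none of the 4 motifs. These matches describe letters and say nothing about which factors bind. Promoters were also available for *Vamp1* and *Vamp4*, but not for *Vamp2*, *Vamp3* and *Vamp7*.

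*Vamp8* encodes endobrevin, which serves fusion of late endosomes and, with syntaxin 17 and SNAP29, of autophagosomes with lysosomes. Its log2 signal was 5.68, 5.75, 5.66 and 5.88 in the 4 control mice and 6.56, 6.23, 6.07 and 5.82 in the 4 knockout mice, in replicate order. Of the knockout values, 3 of 4 lay above all control values, and replicate 4 lay within their range. The log2 fold change was 0.43 (standard error 0.21, 95% interval -0.05 to 0.90, adjusted p = 0.278), which did not pass the threshold. With array weights and without replicate 4 of both groups it was 0.57 and 0.59, with adjusted p values of 0.0214 and 0.0469, and with no scaling it was -0.13. Under the first 2 of these settings limma called 2176 and 1701 of all 11072 tested genes higher, against 325 in the main fit.

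*Vamp7* encodes an R-SNARE of late endosomes and lysosomes with a longin domain at its amino end. Its 1 probe exceeded background clearly on 1 of 4 control and 4 of 4 knockout arrays. The log2 signal was -1.42, -2.30, -3.40 and -3.98 in the 4 control mice, of which only replicate 1 was well above background, and -0.81, -0.59, -0.07 and -0.19 in the 4 knockout mice, in replicate order. The groups did not overlap on this scale, as for 17.8% of all tested genes, 12.7% with the knockout higher. Before scaling between arrays they did, with intensities of 3.9 to 49.6 in hCNR1+/+ and 25.7 to 89.8 in hCNR1-/- hepatocytes. The log2 fold change was 2.36 (standard error 0.50, 95% interval 1.24 to 3.49, adjusted p = 0.0370). With the 3 control values not well above background raised to the lowest such signal of their arrays, an alternative chosen after seeing the data, the log2 fold change was 1.67 (3.17-fold) with an adjusted p of 0.0244. Since the 4 knockout arrays alone were enough to pass the filter on dim probes, the gene could enter the test through the group where it was high, and its adjusted p is not read as support for a change in the family. The call was lost without any one of hCNR1+/+ replicates 2, 3 and 4 or hCNR1-/- replicates 1, 2 and 3 (adjusted p from 0.0594 to 0.113), and was kept without hCNR1+/+ replicate 1 (0.0231) or hCNR1-/- replicate 4 (0.0376). It was also lost with each of 5 other scalings, with normexp background correction, where the log2 fold change was 0.63, and without the filter on dim probes.

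*Vamp4* encodes the R-SNARE that returns membrane from endosomes to the trans-Golgi network. The brighter of its 2 probes was well above background on all 8 arrays and the other on 0 of 8, so only the first was read. Its log2 signal was 0.30, 0.16, -0.37 and -0.48 in the 4 control mice and 0.47, 0.65, 0.87 and 0.45 in the 4 knockout mice, in replicate order. Every knockout value was above every control value on this scale, as for 12.7% of all tested genes (exact two-sided permutation test, p = 0.0286, the smallest that 4 against 4 arrays allow). Before scaling between arrays the groups overlapped, with intensities of 44.5 to 164 in hCNR1+/+ and 40.0 to 173 in hCNR1-/- hepatocytes. The adjusted threshold over all genes was not reached (log2 fold change 0.71, standard error 0.24, 95% interval 0.17 to 1.25, adjusted p = 0.129 in limma). With array weights, where limma called 2176 of all 11072 tested genes higher, the adjusted p was 0.0209. The log2 fold change was 0.15 with no scaling and 0.40 with normexp background correction (adjusted p of 0.952 and 0.466 in limma).

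The 3 remaining genes code for the close relatives synaptobrevin 1, synaptobrevin 2 and cellubrevin. *Vamp2*, synaptobrevin 2, acts at the synapse and in insulin-regulated delivery of glucose transporters. Its log2 signal was 2.16, 2.24, 2.07 and 1.65 in the 4 control mice and 1.99, 1.84, 1.56 and 1.49 in the 4 knockout mice, in replicate order. The groups overlapped, and the log2 fold change was -0.31 (standard error 0.22, 95% interval -0.80 to 0.18, adjusted p = 0.444). *Vamp3*, cellubrevin, acts in recycling endosomes, and its probe was dim, well above background on 3 of 4 arrays of each genotype. Its log2 signal ran from -2.34 to -1.27 in hCNR1+/+ and from -3.01 to -1.99 in hCNR1-/- hepatocytes. The groups overlapped, with a log2 fold change of -0.41 (standard error 0.32, 95% interval -1.13 to 0.31, adjusted p = 0.493). *Vamp1*, synaptobrevin 1, exceeded background clearly in 1 of 4 control and 0 of 4 knockout mice, too few for a fold change.

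Of the 4 tested VAMP genes other than *Vamp5*, which chose the family, and *Vamp7*, which could pass the filter through its higher group, limma called 0 at an adjusted p below 0.05. Over all tested genes 4.24% were called, 2.94% higher and 1.30% lower. At an unadjusted p below 0.05, 1 of the 4, *Vamp4*, was higher and 0 were lower, against 21.6% of all genes in either direction. By the rule of a fold change above 2 with an unadjusted p below 0.05, 0 of the 4 passed, against 4.78% of all genes higher and 3.75% lower, or 8.53% in either direction. Their log2 fold changes ran from -0.41 to 0.71, and the median over all tested genes was 0.08.

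**Figure D2:**
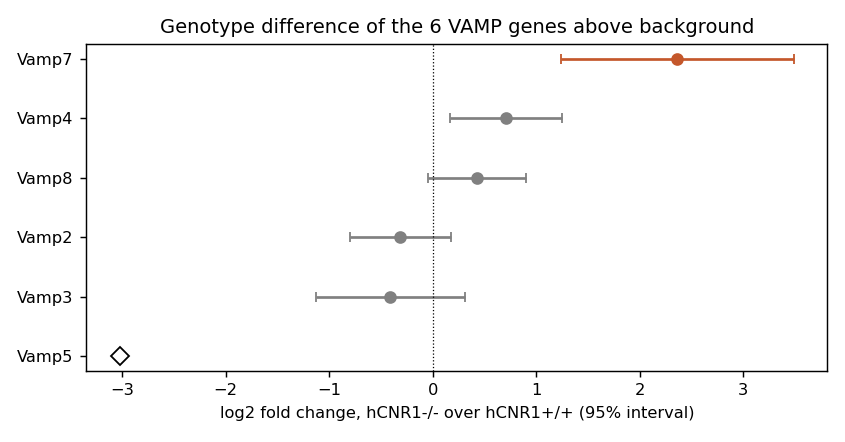
Log2 fold change of hCNR1-/- over hCNR1+/+ hepatocytes (horizontal axis) for the 6 VAMP genes above background (vertical axis), with 95% intervals from limma. The open diamond is *Vamp5*, shown without an interval because its fall chose the family; the interval of *Vamp7* ran from 1.24 to 3.49, and among the other 4 only that of *Vamp4* lay clear of 0.

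The proteins that work with the VAMP family were examined through 71 genes in 9 groups, all on the array, of which 60 were tested. limma called 2 of these 60 genes higher and 0 lower at an adjusted p below 0.05, a share of 3.33% near the background of 4.24% of all genes. At an unadjusted p below 0.05, 9 were higher and 3 lower, against 14.7% and 6.92% of all genes. The median log2 fold change was 0.00, against 0.08 over all genes, with 30 genes below 0 and 30 above. Among the 27 tested SNAREs outside the VAMP family none was called by limma, and 2 were higher and 1 lower at an unadjusted p below 0.05.

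The called genes were *Picalm* and *Exoc6b*. *Picalm* encodes a clathrin adaptor that gathers VAMP2, VAMP3 and VAMP8 into endocytic vesicles. Its log2 signal was 4.54, 4.52, 4.52 and 4.10 in the 4 control mice and 5.46, 5.20, 5.68 and 5.33 in the 4 knockout mice, in replicate order, and the log2 fold change was 1.00 with a standard error of 0.20 (adjusted p = 0.0334). *Exoc6b* encodes a subunit of the exocyst, which tethers vesicles to the plasma membrane. Its log2 signal was 0.67, 1.20, 0.64 and 1.13 in the 4 control mice and 2.53, 1.59, 2.47 and 2.22 in the 4 knockout mice, in replicate order, and the log2 fold change was 1.29 with a standard error of 0.27 (adjusted p = 0.0339). For either gene every knockout value exceeded every control value, as for 12.7% of all tested genes. The number of calls depended on single arrays, as it did over all genes. With all arrays, 325 of all 11072 tested genes were called higher and 144 lower. Without any one hCNR1+/+ array, or without hCNR1-/- replicate 1 or 3, 0 machinery genes were called higher, against 13 to 143 of all genes. Without hCNR1-/- replicate 2, 1 machinery gene was, against 86 of all genes. Without hCNR1-/- replicate 4, 5 machinery genes were called higher and 3 lower, against 1121 and 323 of all genes. With each of 5 other scalings, 0 machinery genes were called higher, against 1 to 131 of all genes.

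**Figure D3:**
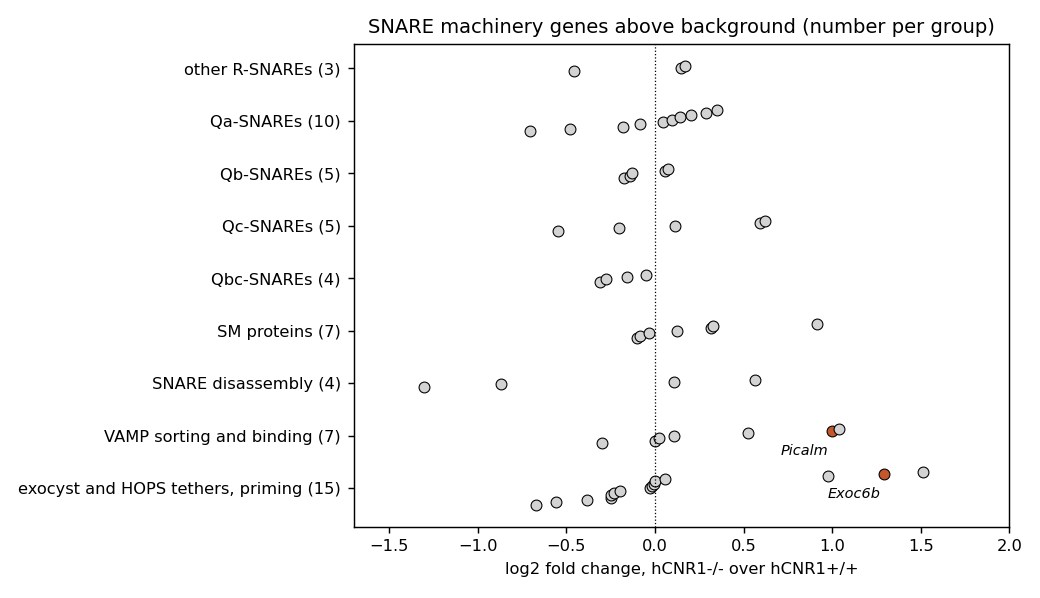
Log2 fold change of hCNR1-/- over hCNR1+/+ hepatocytes (horizontal axis) for the 60 tested machinery genes, 1 point per gene, in 9 groups (vertical axis, number tested in parentheses). Orange points passed an adjusted p below 0.05 in limma, *Picalm* at 1.00 and *Exoc6b* at 1.29, and the grey points did not.

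Of 12 known partners of the VAMP proteins, all were tested and none was called by limma, against 4.24% of all tested genes. At an unadjusted p below 0.05, 1 was lower and 0 higher, against 6.92% and 14.7% of all genes. At the plasma membrane, the syntaxin genes *Stx4a* and *Stx3* had log2 fold changes of 0.14 (95% interval -0.31 to 0.59) and 0.29 (-0.27 to 0.85). Their partner *Snap23* had -0.28 (-0.91 to 0.35), and -0.55 with an adjusted p of 0.0417 without hCNR1-/- replicate 4. Without that array 323 of all tested genes were called lower, against 144 with it. Of the partners of VAMP8 on autophagosomes, *Stx17* had -0.09 (-0.62 to 0.44) and *Snap29* -0.05 (-0.49 to 0.39). Of the trans-Golgi partners of VAMP4, *Stx16* had -0.71 (-1.30 to -0.11, adjusted p = 0.162) and *Stx6* -0.21 (-0.68 to 0.27). *Ykt6*, a lipid-anchored R-SNARE, had 0.14 (-0.41 to 0.70).

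On hCNR1-/- replicate 4, 14 of the 60 machinery genes (23.3%) lay more than 1 log2 unit below the lowest of the other 3 knockout arrays, as did 19.9% of all tested genes, and 0 lay as far above the highest, against 4.86% of all genes. Among the 14 were the Golgi SNARE genes *Gosr1* and *Gosr2*, *Stx18* and *Napg*, and 4 known partners, whose values follow. *Stx7* had a log2 signal of 2.82, 2.42, 2.47 and 2.52 in the 4 control mice and 2.58, 2.42, 2.42 and 0.88 in the 4 knockout mice, in replicate order. *Vti1b* had 4.66, 4.40, 4.35 and 4.10 in the controls and 4.77, 4.73, 4.80 and 2.53 in the knockouts. *Stx8* had 1.76 to 1.96 in hCNR1+/+ mice, 1.88 to 2.05 in hCNR1-/- replicates 1 to 3 and -0.66 in replicate 4. *Vti1a*, which works with VAMP4, had -0.45 in hCNR1-/- replicate 4 and 0.94 to 1.03 in the other 3 knockout mice. In all 4 genes the dimmest array, hCNR1-/- replicate 4, was far below the other 3 of its group. Without it the log2 fold changes moved from -0.48 to -0.08 (*Stx7*), from -0.55 to 0.11 (*Stx8*), from -0.17 to 0.39 (*Vti1b*) and from 0.07 to 0.43 (*Vti1a*), and none was called (adjusted p from 0.138 to 0.755). The part of the array's dimness in these values was not tested.

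**Figure D4:**
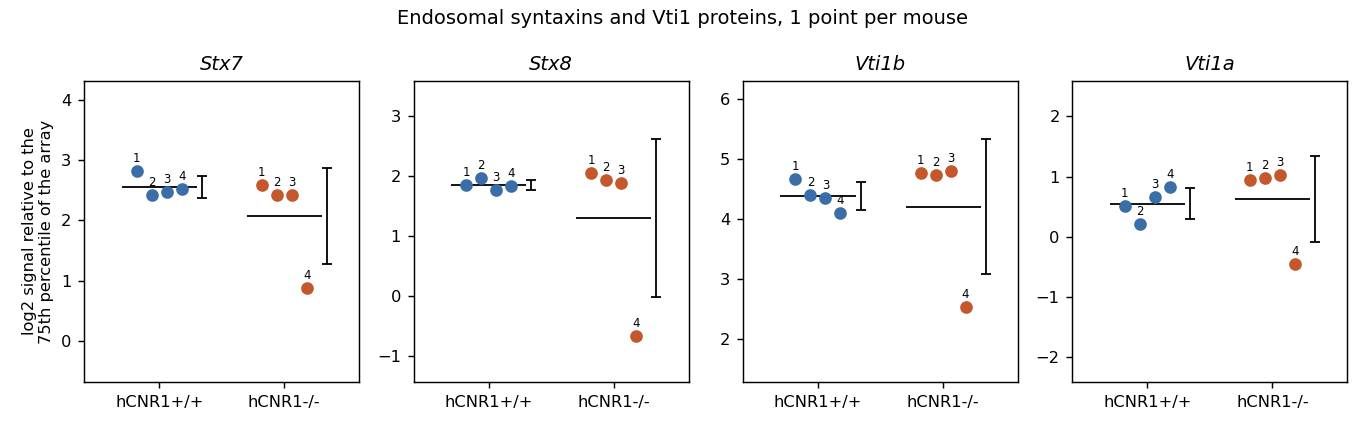
Log2 signal of *Stx7*, *Stx8*, *Vti1b* and *Vti1a* relative to the 75th percentile of the array (vertical axis) in the 4 hCNR1+/+ and 4 hCNR1-/- mice (horizontal axis). Points are mice numbered by replicate, lines are means and bars are SDs; replicate 4 of hCNR1-/- lay lowest in each gene, at -0.66 for *Stx8* against 1.88 to 2.05 in the other knockout mice.

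None of the measured genes on either side of *Vamp5* passed the adjusted threshold in limma, which 4.24% of all tested genes passed. The 3 before it in the annotation, *0610030E20Rik*, *Tmem150a* and *Rnf181*, had log2 fold changes of 0.41, 0.25 and -0.19 (adjusted p of 0.248, 0.618 and 0.601). The lncRNA gene *Gm52494* overlaps *Vamp5* by 1188 bases and had no probe. *Ggcx*, beyond *Vamp8*, had -0.56 (adjusted p = 0.253). At an unadjusted p below 0.05, 0 of these 4 passed, against 21.6% of all tested genes, and so few genes cannot show a departure from that share.

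Within the genotypes, the tested genes whose deviations from their genotype means followed those of *Vamp5* most closely over the 8 arrays included *Cnpy3* (Pearson r = 0.992), *Zfp457* (0.977), *Slc45a4* (0.968) and *Arl13b* (0.966). These are among the 5 highest of all other tested genes, and the points share the array scaling, with hCNR1-/- replicate 4 farthest from its group mean in *Vamp5*. Their genotype differences ran from -1.10 (*Zfp457*) to 1.25 (*Slc45a4*), so a similar pattern within genotypes went with differences of either sign. After scaling, the spread of *Vamp5* and *Vamp7* within genotypes was wide, with pooled SDs of 0.67 and 0.84 against a median of 0.43 over all tested genes, and that of *Vamp8* and *Vamp2* narrow, at 0.23 and 0.25. For *Vamp5* the SD in hCNR1-/- was 0.91 on this scale, while the intensities before scaling ran only from 50.4 to 60.6.

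**Figure D5:**
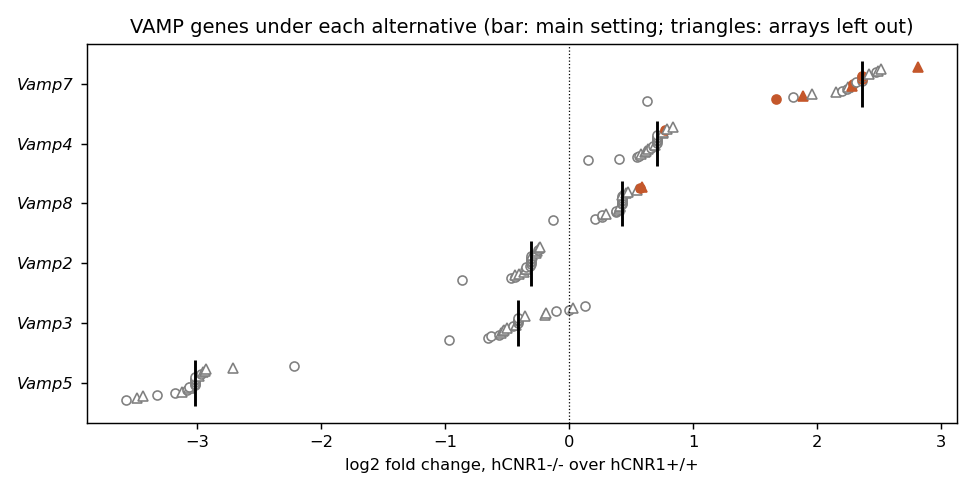
Log2 fold change of hCNR1-/- over hCNR1+/+ hepatocytes (horizontal axis) for each VAMP gene (vertical axis) under every alternative processing, with triangles where arrays were left out, filled points where an adjusted p was below 0.05 (not shown for *Vamp5*) and a bar at the main value. *Vamp5* stayed between -3.57 and -2.22 and *Vamp7* between 0.63 and 2.81, and points on the other side of 0 from the bar occurred for *Vamp3* and *Vamp8*.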

How the data were processed

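The authors deposited, for each array, spot intensities of the Feature Extraction software (version 12.0.3.1), corrected for background within the array and not scaled between arrays, and 1 score per spot, equal within 0.005 to a z-score computed here from log intensities. The array design names an older build, so GRCm38.p6 was used only for names, gene order and the printed promoters, which are from RefSeq. After conversion to log2, each array was centred on its 75th percentile over 59305 spots that are not controls. Outlier-flagged spots were dropped, and spots of 1 probe were averaged. Accessions without versions named 28331 of 55681 probes. The brightest probe of each gene was tested if 4 or more of the 8 arrays showed it clearly over background, with lmFit and eBayes of limma 3.58.1 in R 4.3.3 (two-sided, Benjamini-Hochberg over 11072 genes). The fit was tested on simulated data. No spot was saturated; 28.6% to 42.3% of spots were well above background, and 4 arrays per group limit the precision.

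The members and lists were chosen with earlier results of these data known. Named genes are all VAMP genes, machinery genes at an adjusted p below 0.05, 12 known partners, 3 annotated neighbours on each side of *Vamp5*, the 5 genes most like *Vamp5* within genotypes (1 of them is not reported here), and *Cnr1*. Motifs were searched on both strands.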

Additional observations from a re-analysis of the deposited data

Results flagged for a closer look

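The 56 groups of 4 arrays formed by the named genes and marker means were examined for an array far from the other 3, by the gap to the nearest array over the range of the group, against Dixon's 95% critical value, which chance passes in about 1 of 20 groups. It was passed in 7 groups. In 5 of them the array apart was hCNR1-/- replicate 4, which was low in *Stx7* (0.88, others 2.42 to 2.58), *Stx8* (-0.66, others 1.88 to 2.05), *Vti1b* (2.53, others 4.73 to 4.80), *Vti1a* (-0.45, others 0.94 to 1.03) and the mean log2 signal of the 3 cholangiocyte markers (-0.57, others -0.03 to 0.07). The ratios were 0.904, 0.938, 0.970, 0.937 and 0.847. The groups share the same arrays, and the share of all tested genes that pass this rule was not computed. This array lay more than 1 log2 unit below the other 3 in 19.9% of all tested genes.

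In the hCNR1+/+ group, *Stx17* was high in replicate 1 (-0.31, others -0.78 to -0.71, ratio 0.854), and *Picalm* was low in replicate 4 (4.10, others 4.52 to 4.54, ratio 0.956). No group of a VAMP gene passed the critical value.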

How the results depend on the processing

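Each result was recomputed under 22 alternatives, of which the removal of replicate 4 from both groups and the raising of dim values to each array's lowest signal well above background were chosen after seeing the data. The cause of a move was not tested unless stated. No VAMP gene other than *Vamp5* was called lower under any of them. The count called higher, 1 with the main setting (*Vamp7*), was 0 with quantile normalization, median scaling, no scaling, the 75th percentile over probes well above background on all 8 arrays, the deposited z-scores, normexp, no filter, a filter that asked for all 8 arrays (where *Vamp7* was not tested) and the replicate block, 2 without replicate 4 of both groups, 3 with array weights, and 0 to 1 with 1 array left out. *Vamp7* kept its direction throughout, with adjusted p values of 0.0566 (quantile), 0.160 (median), 0.666 (no scaling), 0.0598 (bright percentile), 0.151 (z-scores), 0.241 (normexp, log2 fold change 0.63), 0.143 (no filter) and 0.103 (replicate block). Machinery genes called higher, 2 with the main setting, were 0 with quantile normalization, median scaling, no scaling, the bright percentile, the z-scores, normexp, no filter and the replicate block, 9 with array weights, 8 without replicate 4 of both groups and 0 to 5 with 1 array left out. Those called lower were 3 with array weights, 3 without replicate 4 of both groups, and 0 to 3 with 1 array left out. Calls over all tested genes moved as well, from 325 higher and 144 lower with the main setting to 2176 and 646 with array weights. Without replicate 4 of both groups they were 1701 and 480, and with 1 array left out 13 to 1121 and 25 to 323. Quantile normalization gave 131 and 87, median scaling 25 and 25, and the z-scores 30 and 51. The sign turned for *Vamp3* without replicate 4 of both groups (0.032) and with raised dim values (0.13), and for *Vamp8* with no scaling (-0.13), where the median of all genes moved from 0.08 to -0.47. *Vamp5* moved by more than its spread only with normexp (-2.22).

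The deviations of same-numbered arrays from their genotype means had correlations of 0.21, -0.16, -0.05 and 0.02 across genes. No such values are given for differently numbered arrays, so these cannot decide whether the replicate numbers pair the mice. With the replicate block limma called 0 genes in all at the adjusted threshold, against 469 without it.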
